A study of Mus musculus with 18 samples.

Results

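The response of Pik3cd-/- mouse ovaries to PMSG was measured on 6 of the 18 arrays of the study, chosen by their titles: 3 arrays of ovaries taken 44 hours after a single dose of 10 IU of PMSG and 3 arrays of untreated ovaries. PMSG (pregnant mare serum gonadotropin) is a hormone that acts on the ovary much as FSH does. Both groups came from females aged 21 days on a mixed C57B6J/S129 background, and both lacked Pik3cd, so the deletion is shared by the treated and the untreated ovaries. The same design in Pik3cd+/- females, again with 3 arrays a group (PMSG, then untreated), is given beside it where the genotypes are compared. No group was injected with vehicle alone, so the effect of the hormone, that of the injection and that of the elapsed hours cannot be told apart. The labels call the replicates biological and do not say whether ovaries of several animals were pooled.

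FSH and hormones like it bind a receptor on the granulosa cells that surround the oocyte, raise cyclic AMP there, and drive small follicles to the large antral stage. Growing follicles make steroids from cholesterol in steps shared between theca cells, which make androgen, and granulosa cells, which turn it into oestrogen. The product of Pik3cd, p110 delta, is one of the catalytic subunits of phosphoinositide 3-kinase and is best known from white blood cells. In granulosa cells FSH also signals through this kinase pathway.

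Signals are given in linear intensity units for the probe set that stood for the gene, and a change is the mean of the PMSG arrays minus that of the untreated arrays on the log2 scale (log2 of the signal plus 8.58) ± SE of a limma model fitted to all 18 arrays. A gene is called, and is said to have risen or fallen, where its p-value adjusted over the 12713 genes tested was under 0.05. Of the 6 probe sets for Pik3cd, the one that separated the genotypes best gave 20.4, 23.6 and 26.4 in the Pik3cd-/- PMSG arrays and 28.8, 23.8 and 26.0 in the Pik3cd-/- untreated arrays, while the 3 Pik3cd+/- PMSG arrays gave 69.8, 67.6 and 71.7 and the 3 Pik3cd+/- untreated arrays 70.03, 69.8 and 61.4. All 6 Pik3cd-/- arrays lay below all 6 Pik3cd+/- arrays on it. The brightest probe set for Pik3cd did not separate them. A probe set was present for all 5 granulosa markers and all 3 oocyte markers, and for 1 of 2 theca markers, Cyp17a1. A probe set does not show that its gene was expressed, and detection was not tested. Cyp17a1 gave 46.9 in oestradiol-treated Pik3cd-/- replicate 1, under the median signal of that array (49.6). The median signal of the 18 arrays lay between 48.4 and 50.9. The median SD between replicates was 0.082 on the log2 scale in the Pik3cd-/- PMSG group and 0.148 in the Pik3cd-/- untreated group. Untreated replicate 2 stood apart in both follicle genes and genes of other cells, as given below, and each call was therefore also tested without it, as without each of the other 5 arrays. In whole ovaries, a change in the number of cells of a type and a change in RNA per cell cannot be told apart.

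PMSG changed 304 of 12713 genes in Pik3cd-/- ovaries (2.39%), 217 upward (1.71%) and 87 downward (0.684%). The rises were the larger: 50 genes (0.393%) rose and 4 genes (0.0315%) fell at least 2-fold. The 50 rises of at least 2-fold include enzymes and carriers of steroid synthesis, the FSH receptor, fatty acid desaturases, amino acid transporters and matrix proteins, and the 4 falls were those of Igfbp3, Stc1, Fmo2 and Mbl2. In all 304 called genes the PMSG arrays did not overlap with the untreated arrays; without regard to the test, 12.4% of all genes were higher in every PMSG array and 14.4% lower in every one. The median change over all genes tested was -0.01. Of the 304 calls, 60 held whichever of the 6 arrays was left out, 58 of them rises. The 2 falls that held, named because they were so few, were those of Dmtf1 (-0.40), a transcription factor that binds D cyclins, and Mettl24 (-0.61). Leaving out PMSG array 1, 2 or 3 gave 118, 116 or 86 calls, and leaving out untreated array 1, 2 or 3 gave 386, 144 or 188. Rises then numbered between 76 and 221 and falls between 10 and 165. A group with 1 array fewer gives a less precise change. Calls near the threshold can therefore be lost without the array left out being unusual. With only the 6 Pik3cd-/- arrays in the model 217 genes were called, and of the genes described below Grem1, Rgs13, Slc38a5, Alas1, Tm7sf2, Sqle, Cyp51, Cyb5b, Gsta2, Ddit3, Ttk and Stc1 were among those that were not. A call below is said to have held where it held without each of the 6 arrays, and for the others the highest adjusted p reached on leaving out 1 array is given, for the gene or for the group of genes named together.

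**Figure D1:**
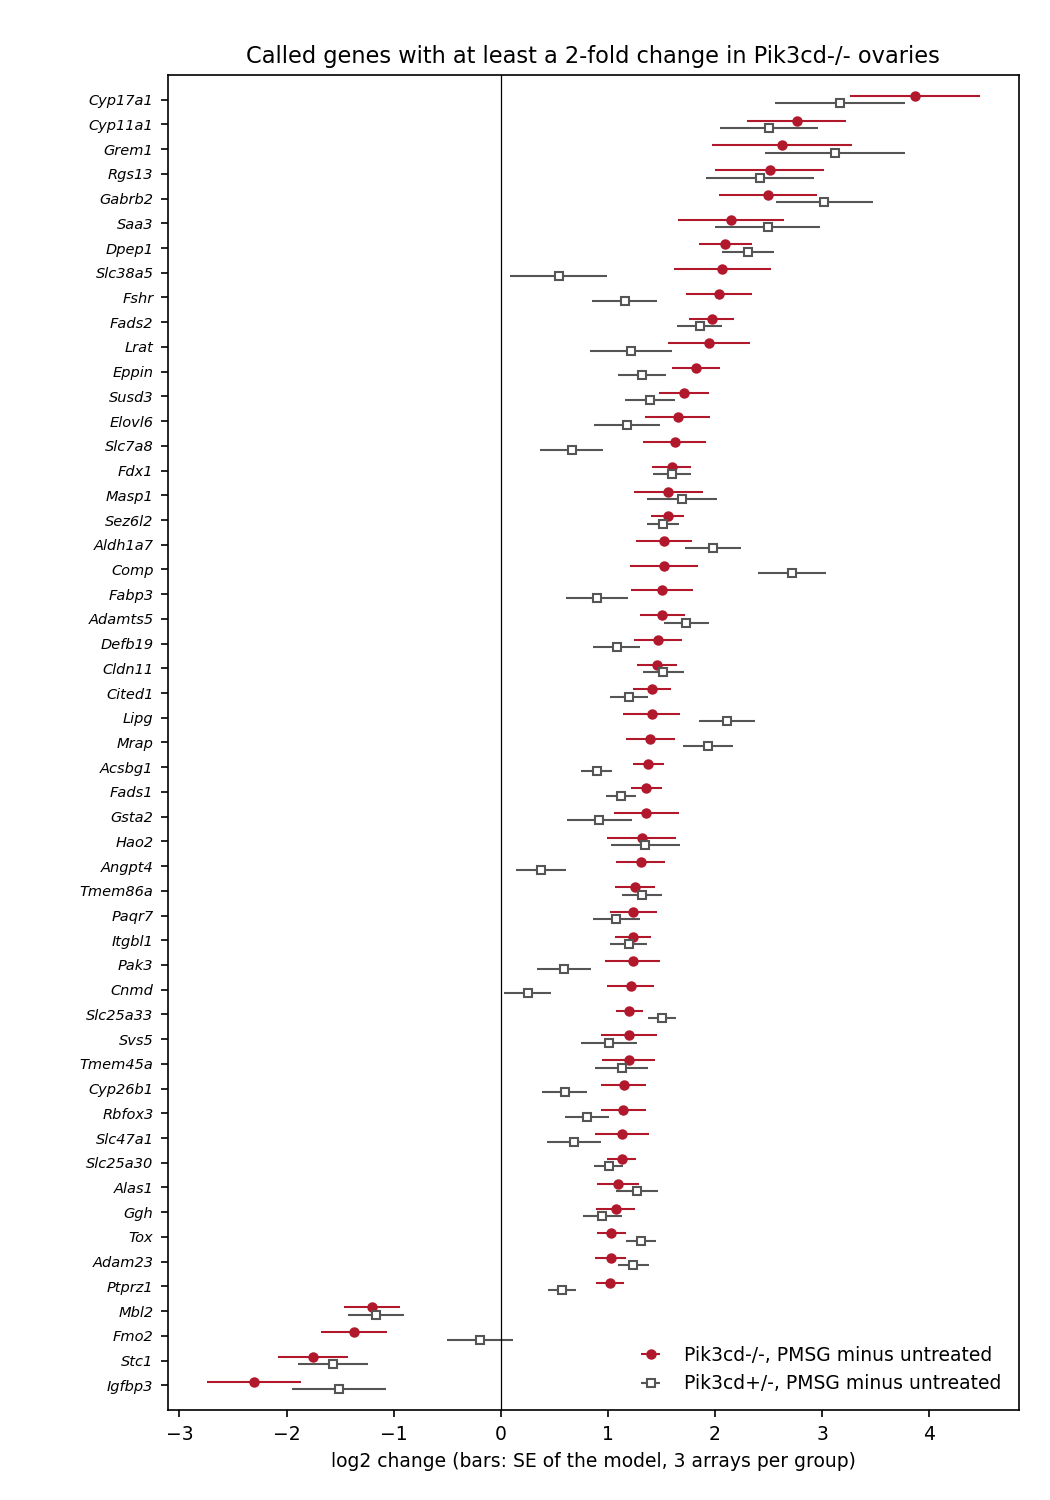
Log2 change ± SE of the model (3 arrays per group) of the named genes called with at least a 2-fold change in Pik3cd-/- ovaries, PMSG minus untreated, with the change of the same genes in Pik3cd+/- ovaries as open squares. Cyp17a1 has the largest rise (3.87) and Igfbp3 the largest fall (-2.30), and most open squares lie on the same side of 0 as the filled circles, with values near 0 for Fmo2 and Cnmd.

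Steroid synthesis rose at both its entry step and its androgen step. Of the 16 tested genes of this list 5 rose and 0 fell, and the median change of the list was 0.36. Cyp17a1, the 17-hydroxylase and lyase that makes androgen in theca cells, gave 3005, 3352 and 6062 in the PMSG arrays, against 666, 194 and 137 in the untreated arrays. The lowest PMSG array was several times brighter than the brightest untreated array, untreated replicate 1, which itself stood well above the other two. The change was 3.87 ± 0.61 (adjusted p = 0.00391), and the call held. Cyp11a1, the mitochondrial enzyme that cuts the side chain of cholesterol, gave 5819, 7496 and 7089 in the PMSG arrays, against 1835, 820.3 and 643 in the untreated arrays, again with untreated replicate 1 the highest of its group and no overlap (2.76 ± 0.46, adjusted p = 0.00601; held). Its electron donor ferredoxin, Fdx1, gave 6269, 6484 and 7543 in the PMSG arrays, against 2510.1, 2393 and 1839 in the untreated arrays. The replicates of Fdx1 lay close together in both groups, and its adjusted p of 0.000316 was the lowest of the list (1.59 ± 0.18; held).

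Nr5a1, the nuclear receptor that drives many steroidogenic genes, gave 941, 890.4 and 874 in the PMSG arrays, against 570.2, 474 and 459.9 in the untreated arrays. The arrays were tight and did not overlap (0.84 ± 0.15, adjusted p = 0.0107; held). The mitochondrial outer-membrane cytochrome Cyb5b rose by a small amount (0.36 ± 0.08, adjusted p = 0.0225), a call that ended without PMSG replicates 2 or 3 or untreated replicate 3, at up to 0.116. Star, which carries cholesterol to the inner mitochondrial membrane, gave 250.2, 465 and 669 in the PMSG arrays, against 143, 101 and 99.5 in the untreated arrays. No PMSG array of Star overlapped with an untreated one, but the PMSG replicates differed widely and the gene was not called (1.84 ± 0.56, adjusted p = 0.092). With only the 6 Pik3cd-/- arrays in the model Star was called (adjusted p = 0.0379). Hsd3b1, which makes progesterone, was bright throughout, at 12551, 12680 and 12233 in the PMSG arrays and 11176, 8171 and 10165 in the untreated arrays, and was not called (0.36 ± 0.13, adjusted p = 0.172). Outside the list, Mrap, the accessory protein of the ACTH receptor, rose by 1.39 ± 0.23 (adjusted p = 0.00559; held) and Alas1, the first enzyme of haem synthesis, by 1.10 ± 0.20 (adjusted p = 0.00951; held). Haem is the cofactor of the P450 enzymes, and Alas1 was the only member called among 7 tested haem synthesis genes.

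**Figure D2:**
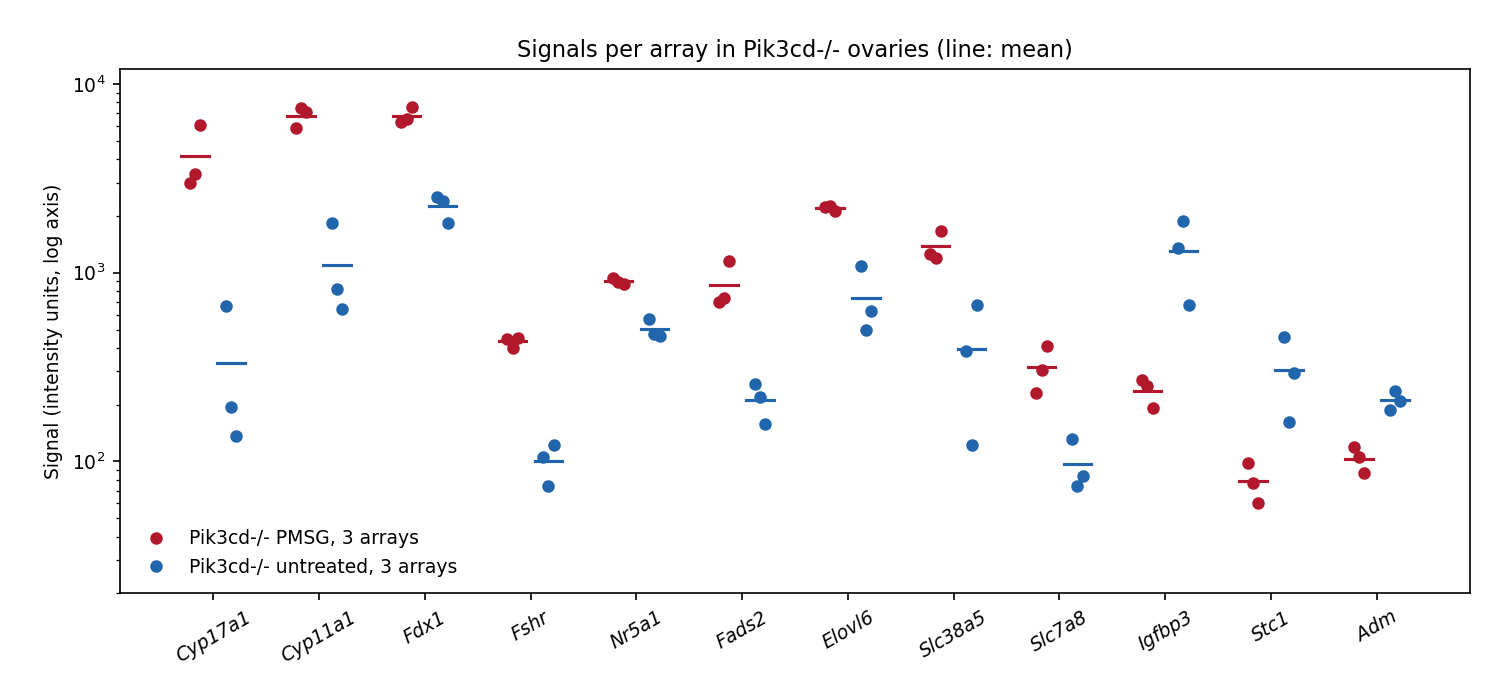
Signal (intensity units, log axis) of 12 genes in the 3 PMSG arrays (red, left of each pair) and the 3 untreated arrays (blue, right) of Pik3cd-/- ovaries, with the mean of each group as a line. The colours do not overlap in any gene. Cyp17a1, Cyp11a1, Slc38a5, Igfbp3 and Stc1 show the widest scatter among the untreated arrays.

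Among targets of FSH and cyclic AMP in granulosa cells, the FSH receptor itself rose, while the other members were not called. Of 16 tested genes of this list 1 rose and 0 fell, and the median change was 0.53. In 9 every PMSG array lay above every untreated array, against 12.4% of all genes. In 1, the kinase anchor Akap12 (-0.29, adjusted p = 0.228), every PMSG array lay below, against 14.4% of all genes. Fshr gave 443, 401 and 453 in the PMSG arrays, against 106, 74.2 and 122 in the untreated arrays. The PMSG arrays lay within a narrow band far above the untreated arrays (2.04 ± 0.30, adjusted p = 0.0029; held). Inhba, the inhibin and activin beta A subunit, gave 7372, 5493 and 5961 in the PMSG arrays, against 2928, 273 and 2066 in the untreated arrays. Untreated replicate 2 lay far below its 2 group mates, and the change of 2.38 ± 0.66 was not called (adjusted p = 0.0689); it was 1.34 without that array (adjusted p = 0.182) and 3.03, and called, without untreated replicate 1 (adjusted p = 0.031). Over the whole list the mean log2 level was 11.07, 11 and 11.03 in the PMSG arrays, against 10.62, 9.72 and 10.65 in the untreated arrays, so untreated replicate 2 was low over the list as well, and without it the list's median change was 0.29. Hsd17b1, which makes oestradiol from oestrone, gave 3570.1, 3123 and 3195 in the PMSG arrays, against 2039, 902 and 2790.1 in the untreated arrays (0.93 ± 0.39, adjusted p = 0.209). Inha, the alpha subunit of inhibin, gave 12050, 11939 and 12354 in the PMSG arrays and 10991, 7929 and 11600 in the untreated arrays, again lowest in untreated replicate 2 (adjusted p = 0.237). Amh, a product of small follicles, gave 383, 423 and 322 in the PMSG arrays and 362, 446 and 458 in the untreated arrays; the groups overlapped, and the change of -0.17 ± 0.13 was not called. No member of the inhibin, activin and AMH system (16 tested) was called, where 2.39% of all genes were.

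The stretch of promoter around the start of Fshr and of Fdx1 is shown, since these were the receptor and the electron carrier whose rises held. The windows run from 250 bases before to 50 bases after the annotated start, read from RefSeq on GRCm38.p6, at chr17:89200626-89200925 (minus strand) for Fshr and chr9:51963553-51963852 (minus strand) for Fdx1. Capitals mark an E-box (CACGTG) in Fshr and, in Fdx1, a GC box (GGGCGG, here on the opposite strand).
Fshr: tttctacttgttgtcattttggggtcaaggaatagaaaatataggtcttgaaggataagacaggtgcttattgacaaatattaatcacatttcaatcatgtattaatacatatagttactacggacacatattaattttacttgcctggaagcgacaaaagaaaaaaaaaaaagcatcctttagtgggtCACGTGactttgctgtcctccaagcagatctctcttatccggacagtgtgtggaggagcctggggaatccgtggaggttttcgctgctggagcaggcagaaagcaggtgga
Fdx1: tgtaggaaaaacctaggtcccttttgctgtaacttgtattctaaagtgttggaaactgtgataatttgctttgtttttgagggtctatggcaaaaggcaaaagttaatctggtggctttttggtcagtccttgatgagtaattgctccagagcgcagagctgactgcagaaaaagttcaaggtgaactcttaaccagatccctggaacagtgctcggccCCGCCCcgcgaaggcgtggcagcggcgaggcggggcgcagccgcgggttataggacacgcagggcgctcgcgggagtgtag
The E-box of Fshr begins 61 bases before the start, and the GC box of Fdx1 31 bases before it. Both strands were searched. An E-box is held by 7.15% and a GC box by 35.7% of the 32851 mouse promoter windows of this length, and both motifs were added to the search after the values were seen. The cyclic AMP response element (TGACGTC), held by 3.21% of all windows, and the Nr5a1 half-site (AAGGTCA), held by 4.72%, were found in 0 of the 7 windows of the 6 called genes of the steroid, FSH target and cholesterol synthesis lists that had a window, out of 9 such genes. These are letters in a window and do not show binding.

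Fatty acid desaturases, an elongase and an activating enzyme rose, while the enzymes that build the chain itself and its acetyl units, Acly (0.26), Acaca (0.22) and Fasn (0.24), were not called (adjusted p = 0.125, 0.371 and 0.516). Fads2, the desaturase that acts first on essential fatty acids, gave 701, 733 and 1151 in the PMSG arrays, against 258, 219.5 and 159 in the untreated arrays. Its partner Fads1 gave 1604, 1728 and 2560.5 in the PMSG arrays, against 817, 732 and 687 in the untreated arrays. In both genes PMSG replicate 3 was the highest array, and the calls held (1.97 ± 0.21 for Fads2 and 1.36 ± 0.14 for Fads1, adjusted p = 0.000175 in each). The other tested probe set of Fads1 changed by only 0.18 and was not called. The 2 other probe sets of Fads2 were called higher (1.47 and 2.19). Elovl6, which lengthens fatty acids, gave 2221, 2260 and 2125 in the PMSG arrays, against 1079, 497 and 625 in the untreated arrays (1.65 ± 0.31, adjusted p = 0.0119). Its call ended without untreated replicate 2 (adjusted p = 0.051). Acsbg1, which activates long-chain fatty acids with coenzyme A, rose by 1.38 ± 0.14 (adjusted p = 0.000175; held). The fatty acid binding protein Fabp3 (1.51 ± 0.29, adjusted p = 0.0138) and the secreted lipase Lipg (1.41 ± 0.26, adjusted p = 0.0122) rose as well; these calls ended without PMSG replicate 3 for Fabp3 (0.066) and PMSG replicate 2 for Lipg (0.0603). With Mid1ip1 (0.67) and Lpcat3 (0.38; up to 0.0989 on leaving out 1 array), 8 of 24 tested genes of fatty acid synthesis, desaturation and activation rose and 0 fell, at a median change of 0.25. This list was drawn up after the calls were seen, so its count is a description of them.

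Cholesterol synthesis genes were higher in all 19 tested members, and 3 rose: Cyp51 (0.75 ± 0.14, adjusted p = 0.00997), Tm7sf2 (1.00 ± 0.21, adjusted p = 0.0186) and Sqle (0.77 ± 0.17, adjusted p = 0.0245). Cyp51 and Tm7sf2 act on lanosterol and the sterols that follow it, and Sqle oxidises squalene. The median change of the list was 0.38. In 12 members every PMSG array lay above every untreated array, against 12.4% of all genes. Of all 12713 genes tested, 5919 had a change above 0. PMSG replicate 3 was the highest array, with a mean log2 level over the list of 8.90, 8.92 and 9.18 in the PMSG arrays, against 8.55, 8.43 and 8.65 in the untreated arrays. Without PMSG replicate 3 none of the 3 was called (adjusted p = 0.0502 for Cyp51, 0.0827 for Tm7sf2 and 0.135 for Sqle); Tm7sf2 and Sqle were also lost without untreated replicate 2, Tm7sf2 without untreated replicate 3 and Sqle without PMSG replicate 2. Idi1, which isomerises isopentenyl diphosphate, was at 0.87 (adjusted p = 0.0765) and Msmo1, a sterol oxidase, at 0.91 (adjusted p = 0.0653) without being called. Of 17 tested genes of cholesterol uptake, transport and storage, Scarb1, the receptor that takes up cholesterol esters from HDL, was the 1 that rose (0.89 ± 0.20, adjusted p = 0.0251; up to 0.12 on leaving out 1 array, and called without PMSG replicate 1 or untreated replicate 1). The median of that list was -0.04.

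Amino acid carriers of several families rose, with the heavy chain that some of them share, but none of these calls held. Of 26 tested amino acid transporters 6 rose and 0 fell, although the list median was 0.01. Slc38a5, a sodium-coupled carrier of glutamine and related amino acids, gave 1256, 1202 and 1673 in the PMSG arrays, against 383, 122 and 671 in the untreated arrays. The untreated arrays spread widely, with untreated replicate 2 the lowest (2.07 ± 0.46, adjusted p = 0.0249; up to 0.119, and called only without untreated replicates 1 or 3). Slc7a8, a light chain of the heterodimeric carriers, gave 232, 305 and 410.1 in the PMSG arrays, against 132, 73.9 and 84.2 in the untreated arrays. These groups were apart in each array (1.62 ± 0.29, adjusted p = 0.00997; 0.0595 without PMSG replicate 3, the 1 array whose loss ended the call). The light chains Slc7a5 (0.64 ± 0.14, adjusted p = 0.0219) and Slc7a6 (0.53 ± 0.13, adjusted p = 0.039), the heavy chain Slc3a2 (0.51 ± 0.12, adjusted p = 0.0364) and the cationic carrier Slc7a1 (0.35 ± 0.07, adjusted p = 0.0198) made up the 6, and none of these 4 held (up to 0.152). Between 0 (without PMSG replicate 3) and 6 members were called when 1 array was left out, and with only the 6 Pik3cd-/- arrays in the model 5 of the 6 were not called, at adjusted p between 0.0702 and 0.125. In Pik3cd+/- ovaries 3 members rose, and Slc38a5 there gave 2239, 2102 and 2597 in the PMSG arrays and 1423, 1573 and 1765 in the untreated arrays, above the 3 untreated Pik3cd-/- arrays throughout.

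Signalling and transcription genes known from the periovulatory follicle rose in part. Of 10 tested LH-responsive and cumulus expansion genes 4 rose and 0 fell (median 0.74): Cited1, a transcriptional co-activator (1.41 ± 0.18, adjusted p = 0.000638), Cebpb, a transcription factor of the ovulatory response (0.78 ± 0.12, adjusted p = 0.00401), the matrix proteoglycan versican, Vcan (0.79 ± 0.19, adjusted p = 0.0424), and the versican-cutting protease Adamts1 (0.74 ± 0.19, adjusted p = 0.0464). Cited1 gave 118, 108 and 153 in the PMSG arrays, against 31.4, 43.4 and 52.5 in the untreated arrays. Cebpb gave 1885, 1595 and 1802 in the PMSG arrays, against 939.6, 996 and 1128 in the untreated arrays. These 2 calls held, while those of Vcan and Adamts1 ended without any 1 array except untreated replicate 1, at up to 0.146 and 0.169. Pgr, the progesterone receptor that LH induces in granulosa cells, was at 0.01 and was not called.

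Of 19 immediate early genes 3 rose and 0 fell (median 0.25). Fosl2, an AP-1 subunit, gave 1238, 1148 and 1091 in the PMSG arrays, against 677, 489.8 and 572 in the untreated arrays (1.00 ± 0.14, adjusted p = 0.00153; held). The other tested probe set of Fosl2 changed by 0.24 and was not called. Myc, a transcription factor of cell growth, gave 632, 622 and 651 in the PMSG arrays, against 406, 432 and 364 in the untreated arrays. The Myc replicates were within a narrow range in both groups (0.66 ± 0.10, adjusted p = 0.00293; held). The orphan receptor Nr4a1 was called in the full model (0.65 ± 0.16, adjusted p = 0.0476) and lost without any 1 array (up to 0.168). Rgs13, which dampens G protein signalling, gave 742, 278 and 679 in the PMSG arrays, against 92.1, 33.7 and 179 in the untreated arrays, and was the 1 called of 12 tested RGS genes (2.51 ± 0.51, adjusted p = 0.0172; lost without PMSG replicates 1 or 3 or untreated replicate 2, up to 0.0835). Grem1, a secreted antagonist of BMP ligands made by granulosa cells, gave 759.6, 430.3 and 493 in the PMSG arrays, against 128, 27.6 and 136 in the untreated arrays. Untreated replicate 2 was again the lowest, and the call of Grem1 (2.63 ± 0.65, adjusted p = 0.0457) was lost without any 1 array but untreated replicate 1 (up to 0.163). It was the 1 called of 22 BMP system genes. Of 20 PI3K pathway genes and 28 genes of cyclic AMP signalling 0 were called, at medians of -0.00 and 0.02. With 2.39% of all genes called, 0 in lists of this size says little about them.

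Of the matrix and protease genes, 4 proteases and 4 matrix proteins rose. Of 20 matrix proteases and inhibitors 4 rose and 0 fell (median 0.11), where 1.71% of all genes rose and 0.684% fell. Adamts5, which cuts aggrecan and versican, gave 557, 407 and 643 in the PMSG arrays, against 189, 202 and 152 in the untreated arrays (1.51 ± 0.21, adjusted p = 0.00151; held). The lysosomal cysteine protease cathepsin L, Ctsl, gave 10285, 9274 and 11304 in the PMSG arrays, against 7055, 7249 and 7564 in the untreated arrays. Its change was small beside the others and its replicates were close (0.49 ± 0.06, adjusted p = 0.000596; held), although the probe set of Ctsl with the highest variance was not called (adjusted p = 0.312). Plau, the urokinase that activates plasminogen, rose by 0.96 ± 0.19 (adjusted p = 0.0172; up to 0.0895, lost without PMSG replicates 1 or 3 or untreated replicate 2). Comp, a matrix protein that binds collagen, gave 136, 121 and 140.3 in the PMSG arrays, against 31.2, 48.3 and 43.0 in the untreated arrays (1.53 ± 0.32, adjusted p = 0.0193; lost without any 1 PMSG array or untreated replicate 1, up to 0.083). Of 28 collagens and matrix proteins only Comp and Vcan rose. Col4a3 (0.57) and Col4a4 (0.57), chains of basement membrane collagen, were the 2 that rose of 18 basal lamina genes, and both were lost without each of 4 or more single arrays (up to 0.0943 and 0.0794).

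Other large rises were those of genes outside the groups above. Dpep1, a membrane dipeptidase, gave 1188, 1199.5 and 1428 in the PMSG arrays, against 229, 379 and 281 in the untreated arrays (2.10 ± 0.25, adjusted p = 0.000407; held). Gabrb2, a subunit of the GABA-A receptor, gave 267, 196 and 167 in the PMSG arrays, against 58.7, 19.9 and 20.3 in the untreated arrays, with untreated replicate 1 above the other two (2.50 ± 0.45, adjusted p = 0.0103; held). Susd3, a membrane protein known as oestrogen-responsive in breast cancer cells, gave 677, 665 and 834 in the PMSG arrays, against 212, 218 and 213 in the untreated arrays, which agreed to within a few units (1.71 ± 0.23, adjusted p = 0.00119; held). Held calls at least 2-fold higher also included the protease inhibitor Eppin (1.82 ± 0.23), the tight junction protein Cldn11 (1.46 ± 0.19), the beta-defensin Defb19 (1.47 ± 0.22), the membrane progestin receptor Paqr7 (1.24 ± 0.22), the mitochondrial carriers Slc25a33 (1.20 ± 0.13) and Slc25a30 (1.13 ± 0.14), and the folate hydrolase Ggh (1.07 ± 0.18). Of 12 tested retinoid metabolism genes 2 rose and 0 fell, where 1.71% of all genes rose. The median of the list was -0.04, with 6 changes above 0 and 6 below. The 2 rises were those of the aldehyde dehydrogenase Aldh1a7 (1.53 ± 0.26, adjusted p = 0.0072, held) and the retinoic acid hydroxylase Cyp26b1 (1.15 ± 0.21, adjusted p = 0.0104, and 0.0506 without PMSG replicate 1). Lrat, which esterifies retinol and is not in that list, gave 147, 209 and 84.3 in the PMSG arrays, against 37.3, 18.02 and 36.7 in the untreated arrays, and rose by more than either (1.94 ± 0.38, adjusted p = 0.0152; up to 0.0751). Among 26 glutathione and detoxifying enzymes 4 rose, the glutathione transferases Gsta2 (1.36 ± 0.30) and Gstm7 (0.88 ± 0.19), the hydroxylase Cyp1b1 (0.54 ± 0.12) and the epoxide hydrolase Ephx1 (0.95 ± 0.15), and 1 fell, Fmo2. Of these, only Ephx1 held, and the others reached up to 0.127. Where a called gene had another tested probe set (147 genes), 231 of the 246 other probe sets moved in the same direction. Only 78 of the 246 did so with an adjusted p under 0.05 in a limma fit of the probe sets. Fabp3 and Gstm7 were among the genes with a probe set that moved the other way. Probe sets of glutathione transferases can share sequence with their relatives.

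The falls were fewer, and most were of under 2-fold. Igfbp3, a secreted protein that binds insulin-like growth factors, gave 270.3, 249.6 and 193 in the PMSG arrays, against 1354, 1873 and 671 in the untreated arrays. All 3 untreated arrays were higher, but they spread widely (-2.30 ± 0.44, adjusted p = 0.0138; 0.0678 without PMSG replicate 3 and 0.0591 without untreated replicate 2). Stc1, stanniocalcin, which inhibits the protease that cuts such binding proteins, gave 98.3, 77.1 and 60.0 in the PMSG arrays, against 458, 162 and 294 in the untreated arrays (-1.75 ± 0.33, adjusted p = 0.0122; 0.066 without PMSG replicate 3). They were the 2 that fell of 17 tested IGF system genes, of which 0 rose; Igf1 was at 0.02 and was not called. Adm, the vasodilator peptide adrenomedullin, gave 119, 105 and 86.4 in the PMSG arrays, against 187, 235 and 209 in the untreated arrays, with no overlap (-0.97 ± 0.22, adjusted p = 0.0268; lost without any 1 array but untreated replicate 1, up to 0.135). Adm and Stc1 belong to the hypoxia response list, of whose 19 tested genes 2 fell and 1 rose, the glycolytic regulator Pfkfb4 (0.67 ± 0.14; up to 0.0897).

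Fmo2, a flavin monooxygenase, gave 143, 131 and 139 in the PMSG arrays, against 364, 535 and 256 in the untreated arrays (-1.37 ± 0.31, adjusted p = 0.0285). Mbl2, a lectin of the complement system, gave 239, 149.6 and 238 in the PMSG arrays, against 439, 592 and 432 in the untreated arrays (-1.20 ± 0.26, adjusted p = 0.0245). The call of Fmo2 was lost without any 1 array but untreated replicate 3, and that of Mbl2 held without untreated replicates 1 or 3 (up to 0.115 and 0.121). The tight junction protein Cldn1 fell (-0.92 ± 0.21, adjusted p = 0.0327; up to 0.13), in contrast to Cldn11 above, as did the secreted phospholipase Pla2g1b (-0.92 ± 0.20), the chromatin protein Hmga2 (-0.78 ± 0.19), the p53 relative Trp63, by which oocytes with damaged DNA are removed (-0.68 ± 0.17) and the stress-response factor Ddit3 (-0.58 ± 0.13). None of these 5 held (up to 0.146), and the other falls among the 20 largest lay between -0.87 and -0.62.

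Oocyte genes were lower in the means without passing the test gene by gene, and of the cell cycle genes 1 fell. All 25 tested oocyte genes had changes under 0, as had 6794 of all 12713 genes, and the median of the list was -0.40. In 21 of the 25 every PMSG array lay below every untreated array, against 14.4% of all genes, and 0 were called. Zp3, of the egg coat, gave 3520, 3942 and 3783 in the PMSG arrays, against 4625, 5042 and 4807 in the untreated arrays. Gdf9, the growth factor by which the oocyte acts on granulosa cells, gave 5459, 6171 and 5887 in the PMSG arrays, against 6728, 8190 and 6818 in the untreated arrays. The groups do not overlap in either gene, but the changes of -0.36 ± 0.16 and -0.31 ± 0.17 were not called (adjusted p = 0.233 and 0.327). Zp3 was called lower with only the 6 Pik3cd-/- arrays in the model (adjusted p = 0.043), and 1 oocyte gene was called lower without untreated replicate 1. Of 28 DNA replication genes 0 were called (median -0.13), and of 24 genes of mitosis 1 fell, the checkpoint kinase Ttk (-0.37 ± 0.09, adjusted p = 0.0438; up to 0.159 on leaving out 1 array). The medians of both cell cycle lists rested on untreated replicate 3: without it they were -0.04 for DNA replication and 0.01 for mitosis.

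**Figure D3:**
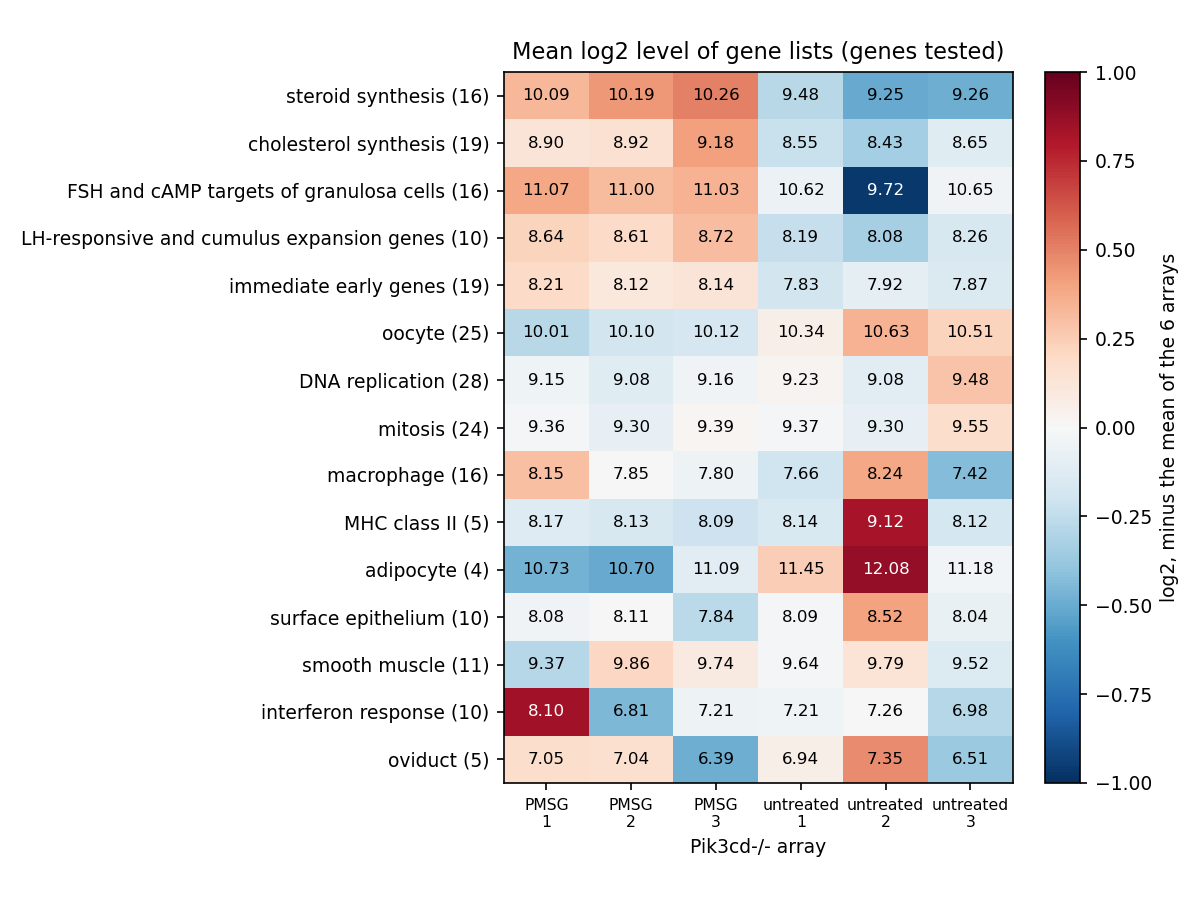
Mean log2 level of gene lists (number of genes tested in brackets) in the 3 PMSG arrays (left) and 3 untreated arrays (right) of Pik3cd-/- ovaries, with the cell coloured by its difference from the mean of the 6 arrays. Steroid synthesis is above 10 in each PMSG array and under 9.5 in each untreated array, while untreated replicate 2 is low for FSH targets (9.72) and high for MHC class II (9.12) and adipocyte genes (12.08).

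Markers of other cells in and around the ovary were not called in any list (macrophage, MHC class II, lymphocyte, smooth muscle, stromal fibroblast, surface epithelium, endothelial and angiogenic, oviduct, adipocyte and blood genes), but untreated replicate 2 was high in several. Of all genes 2.39% were called. The 5 MHC class II genes had mean log2 levels of 8.17, 8.13 and 8.09 in the PMSG arrays, against 8.14, 9.12 and 8.12 in the untreated arrays. The 4 adipocyte genes had 10.73, 10.70 and 11.09 in the PMSG arrays, against 11.45, 12.08 and 11.18 in the untreated arrays, and the 16 macrophage genes 8.15, 7.85 and 7.80 in the PMSG arrays, against 7.66, 8.24 and 7.42 in the untreated arrays. No marker of these lists had a signal of 0 on any array, which does not show that these cells were present. The Pik3cd probe set that separated the genotypes also gave signals above 0 in every Pik3cd-/- array. Interferon response genes (10 tested, 0 called) were highest in PMSG replicate 1, at 8.10, against 6.81 and 7.21 in the other PMSG arrays and 7.21, 7.26 and 6.98 in the untreated arrays. The part these cells have in the calls was not tested beyond leaving out each array; without untreated replicate 2, 144 genes were called and the 5 steroid synthesis calls remained.

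**Figure D4:**
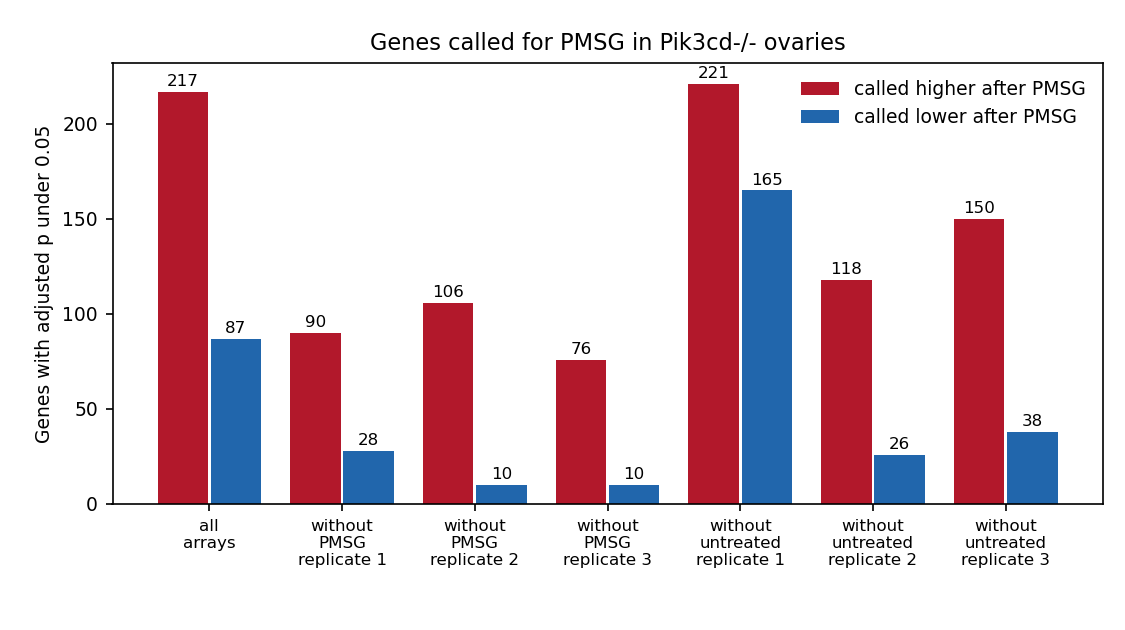
Number of genes called for PMSG in Pik3cd-/- ovaries (adjusted p under 0.05) with all arrays and on leaving out each of the 6 arrays, rises in red and falls in blue. Rises stay between 76 and 221 and falls between 10 and 165; leaving out untreated replicate 1 gives the most falls.

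The same dose in Pik3cd+/- ovaries called 2255 of 12713 genes (17.7%), 739 upward (5.81%) and 1516 downward (11.9%). Of the 304 genes called in Pik3cd-/- ovaries, 153 were called higher and 50 lower in both genotypes, which is 66.8% of the Pik3cd-/- calls and 9% of the Pik3cd+/- calls. In all, 43 of the 50 rises and 3 of the 4 falls of at least 2-fold were also called in Pik3cd+/- ovaries. Fdx1 changed by 1.59 ± 0.18 in Pik3cd-/- and 1.60 ± 0.18 in Pik3cd+/- ovaries, and Cyp11a1 by 2.76 ± 0.46 and 2.50 ± 0.46. The difference between the responses was tested as an interaction on independent arrays: limma called 0 of 12713 genes (0.00%), with 1194 (9.39%) at an unadjusted p under 0.05 and a lowest adjusted p of 0.0716. A difference of responses that was not called does not show that the responses are alike, since its SE was larger than that of either response.

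The 5 genes with the lowest p of the difference all changed little in Pik3cd-/- ovaries. Ddhd1, a phospholipase, changed by 0.22 ± 0.14 in Pik3cd-/- and -1.09 ± 0.14 in Pik3cd+/- ovaries (adjusted p of the difference = 0.0716). Asb4, a substrate adaptor of ubiquitin ligases, changed by -0.05 ± 0.17 in Pik3cd-/- and 1.504 ± 0.17 in Pik3cd+/- ovaries (0.0716). Pawr, a pro-apoptotic protein, was at -0.01 and 0.64 (0.112), Lrp11 at 0.19 and 1.71 (0.122) and the mitochondrial carrier Slc25a42 at -0.07 and -0.99 (0.154), the Pik3cd-/- value first in each pair. All 5 were called in Pik3cd+/- ovaries and none in Pik3cd-/- ovaries.

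Genes called in Pik3cd-/- ovaries alone numbered 64 rises and 37 falls. Of the 304 called genes 61 had an unadjusted p of the difference under 0.05, against 9.39% of all genes. The 304 were chosen by their change in Pik3cd-/- ovaries, which is part of that difference. The choice itself favours a low p, so the 61 are no evidence of a difference. Values in all 4 groups are given for 3 of the 61, Cnmd, Adm and Myc, picked after their values were seen. Cnmd, chondromodulin, an inhibitor of vessel growth, gave 4252, 4379 and 5021 in Pik3cd-/- PMSG arrays and 1625, 1784 and 2557 in Pik3cd-/- untreated arrays, while Pik3cd+/- ovaries gave 3906, 3649 and 5394 after PMSG and 4379.9, 2945 and 3526 untreated, so the 3 Pik3cd-/- untreated arrays lay below all the others. Adm gave 149, 111 and 98.9 in Pik3cd+/- PMSG arrays and 86.4, 87.0 and 149 in Pik3cd+/- untreated arrays, so the 3 untreated Pik3cd-/- arrays (187 to 235) lay above all 6 of these. The unadjusted p of the difference was 0.00696 for Cnmd and 0.00191 for Adm, and adjusted over all genes it was 0.395 and 0.359. Myc gave 845, 843 and 685 in Pik3cd+/- PMSG arrays and 639.9, 737 and 617 in Pik3cd+/- untreated arrays, where its change of 0.25 ± 0.10 was not called (unadjusted p of the difference = 0.00965, adjusted 0.402).

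The oocyte, cell cycle and immediate early lists had fewer called members in Pik3cd-/- than in Pik3cd+/- ovaries, as had all genes together. Of all genes 0.684% were called lower in Pik3cd-/- and 11.9% in Pik3cd+/- ovaries. Called higher were 1.71% and 5.81%. With so few lower calls among all genes, 0 or 1 in a Pik3cd-/- list of this size says little about the list. The oocyte list had 0 of 25 genes called in Pik3cd-/- and 21 lower in Pik3cd+/- ovaries, at medians of -0.40 and -0.90, and 8 members had an unadjusted p of the difference under 0.05, against 9.39% of all genes. Of the DNA replication genes 0 were called in Pik3cd-/- and 20 of 28 were lower in Pik3cd+/- ovaries (medians -0.13 and -0.47; 9 with such a p), and of the mitosis genes 1 and 16 of 24 were lower (medians -0.06 and -0.48; 14 with such a p). Of the immediate early genes 3 of 19 rose in Pik3cd-/- and 12 in Pik3cd+/- ovaries (medians 0.25 and 0.49; 8 with such a p). Steroid synthesis had 5 of 16 called in each genotype (medians 0.36 and 0.41; 1 with such a p). No member of any list was called for the difference after adjustment over all genes.

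Oestradiol (3 injections of 0.03 ml at intervals of 24 hours, ovaries taken at 72 hours) was given to other Pik3cd-/- females of the same age, whose 3 arrays were compared with the same 3 untreated arrays. Cyp17a1 had 46.9, 71.9 and 112 after oestradiol, Cyp11a1 295, 217 and 415 and Igfbp3 508, 165 and 420.2. On the log2 scale these were changes of -1.74, -1.70 and -1.84, of which limma called none (adjusted p = 0.258, 0.214 and 0.173), beside 3.87, 2.76 and -2.30 after PMSG. The 2 comparisons share their untreated arrays.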

How the data were processed

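RNA from whole ovaries was hybridised to Affymetrix mouse arrays. The deposited table holds linear intensity values of each probe set; per the submitters' processing notes they were made with MAS5, and the exact scaling is not given in the sources used here. The arrays had like distributions and were not normalized further. Values were tested as log2 of the deposited intensity plus 8.58, the 10th percentile of all values. The table had 45101 probe sets. Control probe sets (64), those with no symbol (9160) and those with more than 1 (932) were dropped, and each gene was represented by its brightest probe set (18193 genes from 34945 probe sets). The 12713 genes with at least 1 group mean above the median log2 value (5.87) were tested.

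A model of 6 group means over 18 arrays was fitted in R 4.3.3 by limma 3.58.1, with a trend in eBayes (12 residual and 3.66 prior degrees of freedom), two-sided, with Benjamini and Hochberg adjustment over all genes tested. Motifs and figures were made with Python 3.11.15, pandas 2.3.3 and matplotlib 3.10.9. Named genes were all calls of 2-fold or more, the 20 largest falls, members of the gene lists (called ones first by adjusted p) and the 5 lowest p of the difference between genotypes, clone and provisional names left out. The groups, members and lists were chosen with earlier results of these data known; the lists of fatty acid, NADPH, haem, SLC25 and lysosomal genes were drawn up after the calls were seen. Some list members, among them known gonadotropin targets, are not analysed here.

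Alternatives were pseudocounts of 1, 64 or none, quantile normalization, no filter, a filter at the 70th percentile, no trend, the probe set of highest variance, a model of only the groups compared, a block for the replicate number, and each array left out. A block in the smaller model was added after the data were seen. On simulated data with 12713 genes the fit recovered 61.2%, 94.0% and 98.5% of genes changed by log2 0.5, 1 and 2 for PMSG in Pik3cd-/-, and 28.4%, 88.1% and 95.5% for the difference between genotypes. Noise was drawn there independently for each gene and array, at 1 SD per gene for all groups, with no array that stood apart. The real arrays included untreated replicate 2 and groups of unequal spread, so these rates need not hold for them. Arrays carry no counts, so their number limits the precision. The p-values weigh a change against the spread between arrays within groups, which the model pooled over all 6 groups. The median SD of the 2 Pik3cd-/- groups compared was unequal (0.082 after PMSG and 0.148 untreated).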

Additional observations from a re-analysis of the deposited data

How the results depend on the processing

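The 304 calls for PMSG in Pik3cd-/- ovaries (217 higher, 87 lower) became 498 (344 higher, 154 lower) after quantile normalization, and lay between 217 and 311 under the other settings that kept all arrays. On leaving out 1 array they lay between 86 and 386 (76 to 221 higher, 10 to 165 lower), and the calls of at least 2-fold, 54 with all arrays, between 33 and 72. The 2255 calls in Pik3cd+/- ovaries lay between 872 and 2410 on leaving out 1 Pik3cd+/- array. The difference between genotypes, with 0 calls, had 2 with a pseudocount of 64 and between 0 and 4 on leaving out 1 array (1 without Pik3cd-/- PMSG replicate 1, 4 without Pik3cd+/- PMSG replicate 3). The cause of these shifts was not tested.

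Of the 100 named calls none changed direction in any setting. With 1 array left out, between 40 (without PMSG replicate 3) and 85 (without untreated replicate 1) remained. With no filter 87 remained, with the probe set of highest variance 90, and in a model of only the groups compared 68.

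A block for the replicate number gave 295 calls and kept 91 of the 100 named ones. The labels do not say that the numbers pair the arrays, and the deviations of same-numbered PMSG and untreated arrays correlated at -0.24, 0.09 and 0.21, so they were treated as sharing only a number. A block in the model of only the groups compared, added after the data were seen, gave 265. With 3 arrays a group, small changes of dim genes are the least certain.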

Other observations

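Some enzymes that supply NADPH or shuttle reducing power between cytosol and mitochondria rose beside the steroid and fatty acid genes in Pik3cd-/- ovaries. Their list was drawn up after the calls were seen. Of 17 tested genes 6 rose and 0 fell, at a median log2 change of 0.15, where 1.71% of all genes rose. The members not called included Me1 (0.25), Me2 (0.05), Idh2 (-0.16) and Mthfd1 (-0.03). Idh1, the cytosolic isocitrate dehydrogenase, gave 4072, 4575 and 4408 in the PMSG arrays, against 3139, 2337 and 2758 in the untreated arrays (0.67 ± 0.14, adjusted p = 0.0186). Got1, the cytosolic aspartate aminotransferase, gave 896, 796 and 949.9 in the PMSG arrays, against 459, 556 and 583 in the untreated arrays (0.72 ± 0.14, adjusted p = 0.0138). No array of either gene overlapped between the groups. The mitochondrial form of that aminotransferase, Got2, rose by less (0.28 ± 0.06, adjusted p = 0.0215), as did the pentose phosphate enzyme Pgd (0.34), the glycerol phosphate dehydrogenase Gpd2 (0.65) and Tigar (0.37), which lowers fructose bisphosphate. Both other probe sets of Tigar moved the other way (-0.44 and -0.11).

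The lists of SLC25 carriers and lysosomal enzymes were also drawn up after the calls were seen, so their counts only describe the calls. Of all genes 1.71% rose. Of 40 tested SLC25 mitochondrial carriers 5 rose and 0 fell, at a median of 0.07. The rises were those of Slc25a33, Slc25a30, Slc25a34 (0.47), Slc25a45 (0.45) and the glutamate carrier Slc25a22 (0.40). Lysosomal enzymes rose in 5 of 19 tested members and fell in 0, at a median of 0.21. They were Ctsl, Ggh, the glycosidases Gusb (0.64) and Glb1 (0.43), and the ceramidase Asah1 (0.54). Asah1 gave 2912, 2668 and 2842 in the PMSG arrays, against 2016, 2031 and 1757 in the untreated arrays, without overlap (adjusted p = 0.0117). Of 19 oxidative phosphorylation genes 2 rose, both by a small amount: Ndufa1 by 0.18 ± 0.04 and Cox6a1 by 0.16 ± 0.03 (adjusted p = 0.0229 and 0.0142). Glycolysis genes had 0 of 15 called, where 2.39% of all genes were. Their median was 0.23, with 14 of 15 changes above 0, against 5919 of all 12713 genes. Of these, the calls of Slc25a33, Slc25a30, Ctsl, Ggh and Gusb held without each of the 6 arrays, and those of the other 13 genes named as rising here ended on leaving out at least 1 array, at an adjusted p of up to 0.155 (Tigar).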
